A study of Homo sapiens with 6 samples.

Results

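Histone genes were followed in PANC1 cells, a human pancreatic carcinoma line, after treatment with gemcitabine. They were chosen by symbol: every gene whose current symbol starts with H1-, H2AC, H2BC, H3C or H4C and a digit, together with H2AX, H2AZ1, H2AZ2, H2AJ, H3-3A, H3-3B, MACROH2A1 and MACROH2A2. Matched by Ensembl identifier, 45 of the 20461 genes in the deposited RNA-seq table met this rule, and 33 of them are replication-dependent while 12 are replacement or tissue variants. RefSeq lists 81 protein-coding genes with such symbols, and those without a matching identifier were not analysed here.

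Gemcitabine is a deoxycytidine analog. Treatment followed 24 h of culture and lasted 48 h, at 50 nM of the drug in one condition and with 0.1% DMSO (vehicle) in the other. RNA-seq had 2 biological replicates per condition and DNaseI-seq, which maps open chromatin, had 1 library per condition, so that differences in DNaseI-seq have no replicate check. The study rests on a single established cell line. RNA was read with single-end libraries made by an Illumina mRNA protocol, and the value of a gene in a library is the estimated number of fragments assigned to it.

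Vehicle libraries totalled 15153598 and 15766232 fragments and gemcitabine libraries 13194535 and 13275474, so that 3 fragments equalled 0.197 to 0.220 CPM (counts scaled to TMM-adjusted library size). The gemcitabine libraries were therefore the shallower ones. Of the epithelial markers, KRT7, KRT8 and KRT18 each had over 5000 fragments in every library. EPCAM had 80 and 57 fragments in vehicle and 48 and 45 after gemcitabine, and CDH1 had 4 and 7, then 13 and 9. Mesenchymal markers were expressed too: VIM had 10896 and 10621 fragments in vehicle and 9494 and 10781 after gemcitabine. CDH2 had 2196 and 2215, then 1469 and 1636, and ZEB1 had 626 and 800, then 544 and 564. The acinar gene PRSS1 and the endocrine genes INS, GCG and CHGA were at 0 throughout. The summed level of 3 leukocyte markers was at most 0.648 CPM. That of 3 fibroblast markers was 6.81 and 7.22 CPM in vehicle and 10.2 and 9.84 CPM after gemcitabine, with LUM called higher and PDGFRA at 0 in both vehicle libraries. KRT19 was called higher too, and the part of these genes in the results below was not tested.

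Nucleosomes wrap DNA around core histones H2A, H2B, H3 and H4, and linker histone H1 binds where the DNA enters and leaves. Most core and linker histones are made from clustered, intronless genes that are transcribed mainly in S phase, when new DNA has to be packaged, and their mRNAs normally end in a conserved stem-loop in place of a poly(A) tail. Replacement variants such as H2AZ1 and H3-3B are expressed throughout the cell cycle from genes with polyadenylated mRNA. Gemcitabine is incorporated into DNA and blocks its synthesis. A protocol that selects polyadenylated RNA reads replication-dependent histone mRNA only as far as it carries a tail, so the levels below are not those of total histone mRNA.

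The stem-loop is shown first because it separates the replication-dependent genes from the others. The pattern GG, any 3 bases, TT, any base, T, any base, A, any 3 bases and CC (16 in all) was searched on the coding strand within 150 bases after the stop codon in hg19, and it was found in all 33 replication-dependent genes, in H2AX and in none of the other variants. Over all protein-coding genes, 91 of 18782 (0.485%) had a match. The following lines give the match in capitals with 5 bases on each side, 5′ to 3′, for the 4 replication-dependent genes whose changes are described most fully and for H2AX.
H2BC12, chr6:27114140-27114165, minus strand: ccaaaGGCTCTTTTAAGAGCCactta
H2AC6, chr6:26124892-26124917, plus strand: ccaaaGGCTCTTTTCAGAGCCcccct
H2AC25, chr1:228645065-228645090, minus strand: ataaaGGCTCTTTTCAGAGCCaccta
H2AC11, chr6:27101289-27101314, plus strand: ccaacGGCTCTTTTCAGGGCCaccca
H2AX, chr11:118965603-118965628, minus strand: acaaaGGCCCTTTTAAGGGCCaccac
The stem of H2AC11 pairs at 5 of 6 positions and those of the other sequences shown pair at all 6. A match is a description of the sequence and not evidence of how a given transcript ends.

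Promoters of histone genes are also alike. RefSeq promoters (GRCh38.p14) were matched for 42 of the 45 genes, and motifs were searched on both strands in the 250 bases before the start. CCAAT was in 28 of 31 replication-dependent promoters (90.3%) against 33.0% of all 27305 promoters in the table. TATAAA was in 67.7% against 11.1%. The octamer ATTTGCAT, known for its place in H2B promoters, was in 41.9% against 1.66%, in 6 of 10 replication-dependent H2B promoters and in 6 of 8 H2A promoters. Some H2A and H2B genes share a short promoter, so 1 octamer can be counted for both. In the last 100 bases before the start, no H2A promoter held it. H2AC7 and H3C4 were matched to the same promoter. The last 100 bases before the start are given for 4 H2B genes with all or most of these motifs (capitals). Of these, H2BC12 and H2BC21 were called lower after gemcitabine and H2BC11 did not pass the test (below). H2BC18 reached the 10 fragments needed for a test through its vehicle libraries, so nothing is read from its fall. The difference between the 4 genes was not tested.
H2BC12, chr6:27146859-27146958, minus strand: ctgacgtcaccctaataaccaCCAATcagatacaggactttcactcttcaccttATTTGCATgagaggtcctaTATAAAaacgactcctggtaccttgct
H2BC21, chr1:149886683-149886782, minus strand: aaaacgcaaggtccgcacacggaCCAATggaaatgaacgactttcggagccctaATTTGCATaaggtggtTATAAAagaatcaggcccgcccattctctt
H2BC18, chr1:149812371-149812470, minus strand: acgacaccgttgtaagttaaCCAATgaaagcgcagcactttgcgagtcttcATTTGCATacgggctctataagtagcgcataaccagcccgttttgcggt
H2BC11, chr6:27132796-27132895, minus strand: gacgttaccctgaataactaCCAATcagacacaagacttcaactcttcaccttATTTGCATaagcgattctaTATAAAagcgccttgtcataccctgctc
The 4 windows share CCAAT and the octamer in the same order, and 3 of them hold TATAAA as well. The motifs do not overlap each other in these windows.

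Fragments were assigned mostly to variants. Summed over the 12 variant genes, the level was 1535 and 1501 CPM in vehicle and 1351 and 1379 CPM after gemcitabine, which was 93.4% to 94.6% of the fragments of these 45 genes (many clustered genes were not analysed). The 33 replication-dependent genes together held 103 and 106 CPM in vehicle and 82.6 and 78.1 CPM after gemcitabine. Of the 45 genes, 26 had at least 10 fragments over the 4 libraries and were tested. A further 10 were at 0 in every library (H1-1, H1-3, H1-6, H1-7, H1-8, H2AC1, H2BC1, H2BC26, H3C14 and H3C15). The other 9 had at most 4 fragments in any library (H1-4, H1-5, H2AC20, H2AC21, H2BC13, H3C13, H4C3, H4C11 and MACROH2A2). MACROH2A2, a macrodomain variant, had 0, 2, 0 and 0 fragments.

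Per length of transcript, in FPKM (fragments divided by transcript length and by library size), H2AZ1 had the highest mean of any histone gene (537), followed by H3-3B (385), MACROH2A1 (184), H2AZ2 (181) and H3-3A (101). MACROH2A1 and H2AZ2 overlapped in their libraries and cannot be ordered. The highest replication-dependent genes were H2BC12 (49.4), H1-2 (29.0), H2AC25 (7.31), H2AC6 (6.72) and H2BC11 (6.65), and the last 3 overlapped as well. Among the tested genes H2BC18 was the lowest (0.089).

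**Figure D1:**
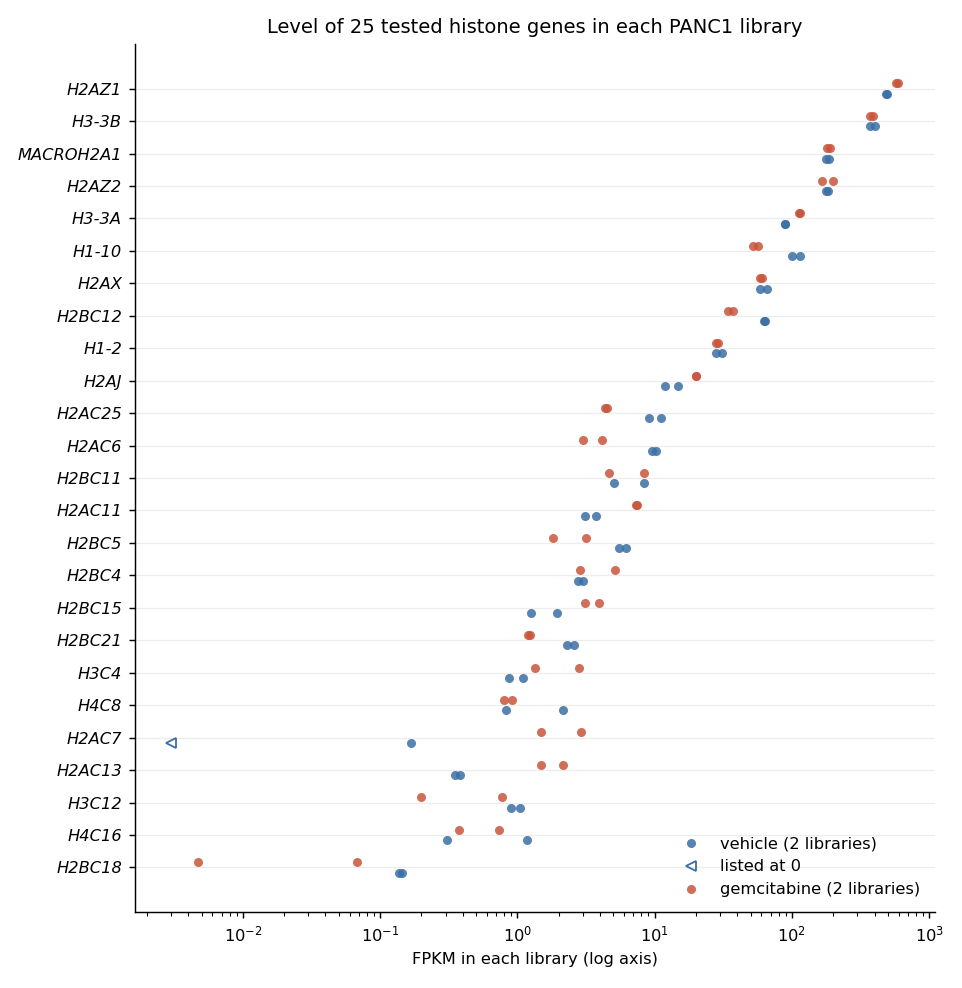
Level of 25 of the 26 tested histone genes in FPKM (log axis) in the 2 vehicle (blue) and 2 gemcitabine (red) libraries, ordered by mean. H2AZ1 stood at the top (mean 537), H2BC12 was the highest replication-dependent gene (49.4), and the open triangle marks H2AC7, which was listed at 0 in 1 vehicle library.

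Conditions were compared with the quasi-likelihood test of edgeR over 14854 genes, with p-values adjusted by the method of Benjamini and Hochberg. Calling a gene different required an adjusted p under 0.05 and a fold above 1.5. It also required a mean FPKM that reached 0.1 in either condition and differed between them by at least 1. After gemcitabine, 4 of the 26 tested histone genes were called higher (15.4%) and 7 lower (26.9%). Of all tested genes, 5.69% were called higher and 4.42% lower. By the adjusted p alone, 6 histone genes rose and 9 fell, against 18.5% and 20% of all tested genes. The log2 fold changes had a median of -0.16 over the histone genes and of 0.0069 over all tested genes. These are counts over chosen genes and no test was run on them. Of the 4 genes called higher, H2AC7 and H2AC13 passed the fragment minimum through their gemcitabine libraries, so nothing is read from that count. In bulk RNA, fewer cells that express a gene and less of its RNA per cell cannot be told apart.

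Among linker histones, the replacement variant H1-10 had 2404 and 2245 fragments in vehicle and 971 and 1037 after gemcitabine. It fell by 1.10 on the log2 scale (SE 0.08, edgeR adjusted p = 1.71e-07), and its mean FPKM went from 107 to 54.1. A noncoding gene on the opposite strand, H1-10-AS1, overlaps it, and the sources used here do not state whether reads were counted by strand. H1-2, the main replication-dependent linker histone in these libraries, had 261 and 258 fragments in vehicle and 220 and 210 after gemcitabine. The change did not pass the test (log2 fold change -0.16, SE 0.11, edgeR adjusted p = 0.290). H1-10 was thus lower in both gemcitabine libraries by a fold of 2.14, while H1-2 stayed close to its vehicle level.

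**Figure D2:**
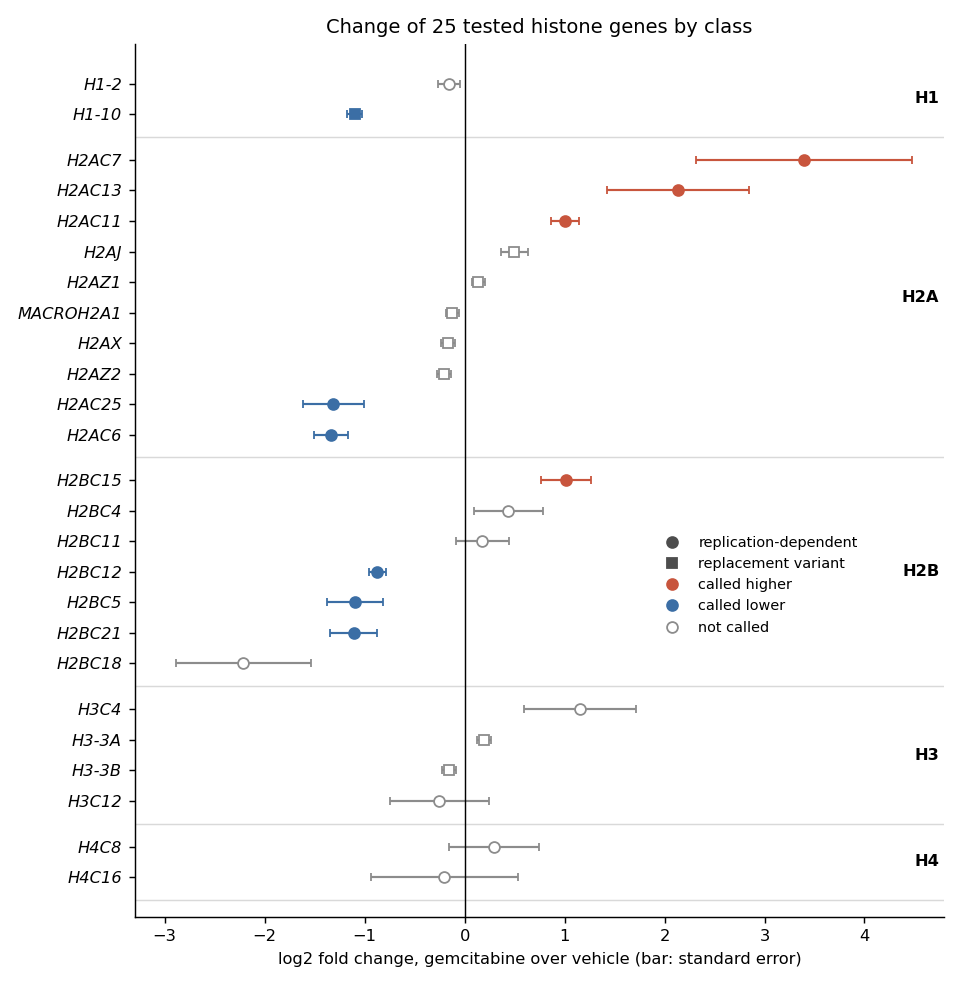
Log2 fold change (gemcitabine over vehicle) of 25 of the 26 tested histone genes by class, with standard errors derived from the edgeR test (2 libraries per condition). Circles are replication-dependent genes and squares replacement variants, filled red or blue where called higher or lower. The linker histone H1-10 lies left of 0, while the H2A genes run from -1.34 (H2AC6) to 3.39 (H2AC7). H2AC7 rests on few fragments and passed the fragment minimum through its gemcitabine libraries, so nothing is read from that end.

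The abundant core variants moved little. H2AZ1, which marks promoters and is loaded by remodelling complexes, had 292 and 296 CPM in vehicle and 328 and 319 CPM after gemcitabine, a change that did not pass the test (log2 fold change 0.14, SE 0.064, edgeR adjusted p = 0.104). The edgeR adjusted p of H2AZ1 was 0.00539 on library totals and 0.0151 without gemcitabine replicate 2. H2AZ2, the other H2A.Z gene, had 277 and 278 CPM in vehicle and 228 and 254 CPM after gemcitabine. It passed the adjusted p alone (log2 fold change -0.20, SE 0.07, edgeR adjusted p = 0.0328), and in FPKM its direction was the opposite (0.00 on the log2 scale with either pseudocount, positive in sign). The edgeR adjusted p was 0.249 on library totals, 0.220 without vehicle replicate 1, 0.225 without vehicle replicate 2 and 0.0794 without gemcitabine replicate 1, in a range of 1.19e-05 to 1 over 12 alternative fits. The 2 H2A.Z genes thus lay on either side of 0, and the difference between them was not tested. On the FPKM scale the median of all tested genes lay at 0.10, against 0.0069 after TMM scaling of counts, so that FPKM values sit higher after gemcitabine as a whole.

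H2AX, the variant phosphorylated at DNA breaks, had 92.0 and 86.2 CPM in vehicle and 80.6 and 77.9 CPM after gemcitabine (log2 fold change -0.17, SE 0.07, edgeR adjusted p = 0.0704). MACROH2A1, a macrodomain variant of silenced chromatin, had 277 and 281 CPM in vehicle and 261 and 250 CPM after gemcitabine (log2 fold change -0.13, SE 0.06, edgeR adjusted p = 0.142). Its sign also turned on the FPKM scale (0.02). Neither gene passed the test, but without gemcitabine replicate 1 the edgeR adjusted p was 0.0267 for H2AX and 0.0270 for MACROH2A1. For both genes the libraries of the conditions did not overlap, which also held for 69.7% of all tested genes. H2AJ, a variant linked to senescent cells, had 11.97 and 9.85 CPM in vehicle and 15.1 and 15.7 CPM after gemcitabine. It rose by the adjusted p alone, with a log2 fold change of 0.50 (SE 0.13, edgeR adjusted p = 0.00893), and its fold of 1.41 missed the limit. Without vehicle replicate 1 its log2 fold change was 0.65 and H2AJ was called, while without vehicle replicate 2 it was 0.37 and the edgeR adjusted p 0.161, in a range of 0.00147 to 0.176 over 12 alternative fits.

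The replacement histone H3.3 comes from a pair of genes. H3-3A had 65.4 and 67.8 CPM in vehicle and 77.2 and 75.6 CPM after gemcitabine, and it rose slightly by the adjusted p alone (log2 fold change 0.20, SE 0.07, edgeR adjusted p = 0.0357). The adjusted p was 0.137 with DESeq2, 0.229 with edgeR without vehicle replicate 1 and 0.139 without vehicle replicate 2, in a range of 0.00353 to 0.229 over 12 alternative fits. H3-3B, the more abundant gene, had 343 and 325 CPM in vehicle and 292 and 308 CPM after gemcitabine (log2 fold change -0.16, SE 0.07, edgeR adjusted p = 0.0815, and 0.00302 without gemcitabine replicate 2, in a range up to 1). Both genes stayed within a fold of 1.15, and their opposite signs were not tested against each other. The estimate for H3-3B was not a whole number in 1 library.

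Of the replication-dependent core histones, 5 H2A, 7 H2B, 2 H3 and 2 H4 genes were tested, so the classes are not compared. Among them 5 genes were called lower (4.42% of all tested genes were), all of them coding for H2A or H2B. H2BC12, the most abundant, had 635 and 690 fragments in vehicle and 331 and 337 after gemcitabine. It fell by 0.87 on the log2 scale (SE 0.09, edgeR adjusted p = 3.32e-06). H2AC6 had 160 and 183 fragments in vehicle and 68 and 57 after gemcitabine, and fell by 1.34 (SE 0.17, edgeR adjusted p = 2.69e-05). The conditions were well apart for both genes, and both were called with every library left out in turn.

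H2AC25 had 43 and 57 fragments in vehicle and 19 and 18 after gemcitabine, and fell by 1.31 on the log2 scale (SE 0.30, edgeR adjusted p = 0.00343). H2BC21 had 74 and 90 fragments in vehicle and 36 and 34 after gemcitabine, and fell by 1.11 (SE 0.23, edgeR adjusted p = 0.00168). H2BC5 had 56 and 60 fragments in vehicle and 30 and 20 after gemcitabine, and fell by 1.10 (SE 0.28, edgeR adjusted p = 0.00653). These 3 calls were less firm than those of H2BC12 and H2AC6. Without vehicle replicate 2, the edgeR adjusted p was 0.0721 for H2AC25, 0.0561 for H2BC21 and 0.0845 for H2BC5, and without vehicle replicate 1 it was 0.0732 for H2BC5. Over 12 alternative fits the adjusted p ran from 0.00214 to 0.0980 for H2AC25, from 0.000385 to 0.0931 for H2BC21 and from 0.000475 to 0.201 for H2BC5, and no fold change turned positive. H2BC18, named after its values were seen, had 11 and 10 fragments in vehicle and 2 and 2 after gemcitabine. It fell by the adjusted p alone (log2 fold change -2.21, SE 0.67, edgeR adjusted p = 0.0177) and was too low in FPKM to be called. H2BC18 passed the fragment minimum through its vehicle libraries, so nothing is read from this fall. Over 11 alternative fits its log2 fold change ran from -2.30 to -0.14. H2BC18 overlaps FCGR1A on the opposite strand.

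In the other direction, H2AC11 had 121 and 109 fragments in vehicle and 214 and 213 after gemcitabine. It rose by 1.01 on the log2 scale (SE 0.14, edgeR adjusted p = 5.57e-05) and was called with every library left out in turn. H2BC15 had 31 and 37 fragments in vehicle and 71 and 56 after gemcitabine, and rose by 1.01 (SE 0.25, edgeR adjusted p = 0.00561). Its edgeR adjusted p was 0.0892 without vehicle replicate 1 and 0.0587 without vehicle replicate 2, and it ran from 0.000293 to 0.197 over 12 alternative fits. H2AC11 and H2BC15 thus rose by about the same amount, with the firmer call for H2AC11.

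The remaining rises, named after their values were seen, rest on few fragments. H2AC13 had 2 and 2 fragments in vehicle and 7 and 10 after gemcitabine, a ratio scaled to library size of 4.60 with a 95% exact counting interval of 1.5005 to 18.8. H2AC7 had 0 and 1.14 fragments in vehicle and 7.90 and 4.02 after gemcitabine, and the ratio of the rounded sums was 12.99 (1.92 to 555). Both passed the test (edgeR adjusted p = 0.0281 and 0.0222) and no longer did so under several alternatives, over which the adjusted p reached 0.210 and 0.141. For H2AC13 the edgeR adjusted p was 0.0948 without vehicle replicate 1, 0.104 without vehicle replicate 2 and 0.124 without gemcitabine replicate 2. For H2AC7 it was 0.119 without vehicle replicate 1, and with either gemcitabine library left out the gene was too low to test. Estimates for H2AC7 were not whole numbers, and together with H3C4 it overlaps an annotated gene on the same strand, so its value is uncertain.

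The other replication-dependent genes that were tested did not pass. H2BC11 had 38 and 54 fragments in vehicle and 55 and 41 after gemcitabine, and the conditions overlapped (log2 fold change 0.18, SE 0.27, edgeR adjusted p = 0.637). Its sign changed between alternatives. H2BC4, H3C4, H3C12, H4C8 and H4C16 had log2 fold changes from -0.25 to 1.16. The 4 H4 genes and the 5 replication-dependent H3 genes that could be matched each summed to at most 1.73 CPM in any library, and most genes of these classes were not analysed here.

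By class, replication-dependent H2B summed to 59.9 and 63.5 CPM in vehicle and 40.5 and 37.6 CPM after gemcitabine (ratio 0.633). H2BC12 alone had 43.7 and 45.3 CPM in vehicle and 23.8 and 24.7 CPM after gemcitabine. This 1 gene made up most of the H2B sum and of its fall, while H2BC15 rose (above). The replication-dependent H2A genes summed to 22.6 and 23.4 CPM in vehicle and 22.8 and 22.3 CPM after gemcitabine (ratio 0.983). The sum of H2A hardly differed, and of its 5 tested genes 3 were called higher and 2 lower (5.69% and 4.42% of all tested genes). H2AC7 and H2AC13, among those called higher, passed the fragment minimum through their gemcitabine libraries, so nothing is read from these counts. With 2 libraries per condition an exact test on a sum could not pass, and none was run. By position, 13 of the 23 replication-dependent genes on chromosome 6 were tested, and 4 were called higher and 3 lower. H2AC7 and H2AC13 are among the 4, so nothing is read from that count either. On chromosome 1, 3 of 9 were tested, and H2AC25 and H2BC21 were called lower. H2BC18, which passed the fragment minimum through its vehicle libraries, fell by the adjusted p alone.

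**Figure D3:**
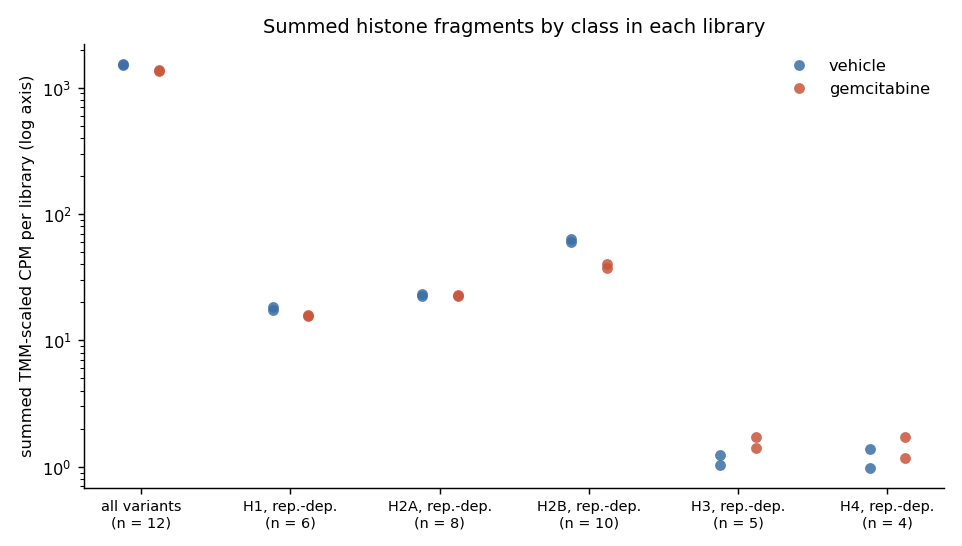
Summed level of each class of histone genes in CPM (log axis) in each library, vehicle in blue and gemcitabine in red. The sum of replication-dependent H2B was lower after gemcitabine (ratio 0.633), while replication-dependent H2A had a ratio of 0.983. H2BC12 made up most of the H2B sum in each library.

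Some replication-dependent genes have annotated transcripts that run on past the stem-loop, which are candidates for polyadenylated mRNA. In Gencode (v44, lifted to hg19), 9 of the 33 genes had a transcript ending at least 50 bases beyond it: H2AC6, H2AC25, H2BC4, H2BC5, H2BC11, H2BC15, H2BC18, H2BC21 and H2BC26. Of the 8 that were tested, 1 was called higher and 4 lower, and the median was -1.10 on the log2 scale. Of the other 24 genes 9 were tested, and 3 were called higher and 1 lower, with a median of 0.29. The split was chosen with the fold changes known and was not tested. Of all tested genes, 5.69% were called higher and 4.42% lower. Of the 3 rises in the second group, those of H2AC7 and H2AC13 passed the fragment minimum through their gemcitabine libraries. In the first group H2BC18 passed it through its vehicle libraries. The groups are therefore compared neither in their medians nor in their counts. The falls were H2AC6, H2AC25, H2BC5 and H2BC21 in the first group and H2BC12 in the second.

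A list of 7 genes described as making polyadenylated mRNA, written from general knowledge, was counted as well: H2AC6, H2BC5, H2BC12 and H2BC21 were called lower, and none of H1-2, H2BC4 and H4C8 was called. Among all tested genes 4.42% were called lower. The list was chosen with earlier results of these data known and was not tested, so nothing is read from this count. The length that the authors' FPKM implies for H2AC11, 2.19 kb, is well above the 493 bases of its annotated transcript in the release used here, and the cause was not tested. Its place among the genes without a transcript past the stem-loop is therefore uncertain. In the same group H2BC12 (0.678 kb against 0.495 kb), H3C12, H4C8 and H4C16 also lay above their annotated length, by smaller margins. Their place is uncertain as well, while H1-2, H2AC13 and H3C4 lay below their annotated length.

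Many H2A and H2B genes lie head to head, so that their start sites face away from each other across a short shared promoter. There were 6 such pairs among the histone genes, with starts 215 to 248 bases apart. H2BC4 and H2AC6, 219 bases apart on chromosome 6, went different ways. H2AC6 fell (above), while H2BC4 had 22 and 25 fragments in vehicle and 37 and 22 after gemcitabine (log2 fold change 0.44, SE 0.35, edgeR adjusted p = 0.343). The ratio of H2AC6 to H2BC4 fragments was 7.27 and 7.32 in vehicle and 1.84 and 2.59 after gemcitabine. H2BC4 also overlaps HFE and another annotated gene on the opposite strand.

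The pair H2BC11 and H2AC11, 248 bases apart, had a ratio of H2AC11 to H2BC11 fragments of 3.18 and 2.02 in vehicle and 3.89 and 5.20 after gemcitabine. In both pairs the ratio did not overlap between the conditions, lower after gemcitabine in the first and higher in the second, and the difference within a pair was not tested. With 2 libraries per condition such a gap is common: the levels of 69.7% of all tested genes did not overlap either. In the remaining pairs at least 1 gene was too low to be tested. H2BC21 (called lower) faces H2AC20, with at most 2.94 fragments, and H2AC25 (called lower) faces H2BC26, at 0 in every library.

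**Figure D4:**
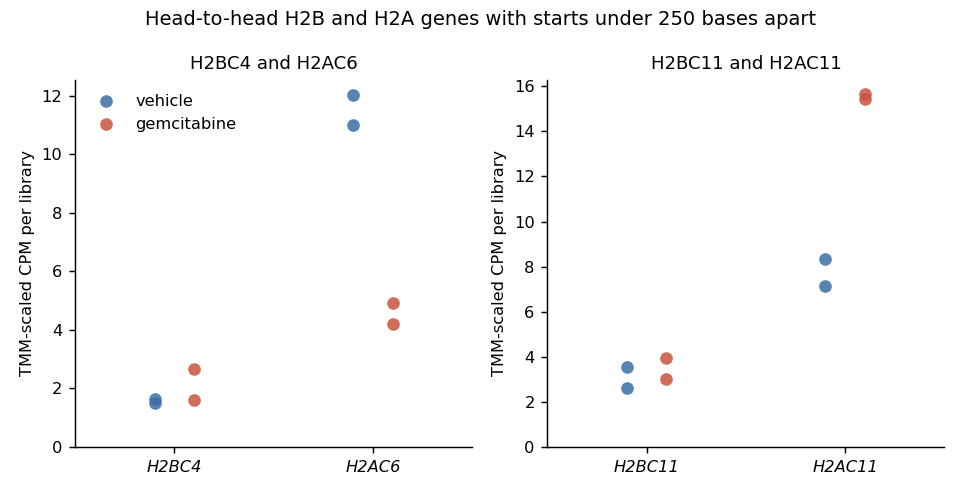
CPM in each library of 2 head-to-head gene pairs on chromosome 6, H2BC4 with H2AC6 (219 bases between starts) and H2BC11 with H2AC11 (248 bases), vehicle in blue and gemcitabine in red. H2AC6 was lower and H2AC11 higher after gemcitabine, while the libraries of H2BC4 and of H2BC11 overlapped between the conditions.

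Genes that make, process and destroy histone mRNA were examined as lists. SLBP, the protein that binds the stem-loop and guides 3′ end processing and translation, had 1748 and 1812 fragments in vehicle and 1074 and 1028 after gemcitabine. It fell by 0.65 on the log2 scale (SE 0.07, edgeR adjusted p = 4.22e-06). SLBP was the 1 gene called among 18 genes of histone mRNA synthesis and 3′ end processing (4.42% of all tested genes were called lower and 5.69% higher). By the adjusted p alone 7 of the 18 genes fell and 0 rose, against 20% and 18.5% of all tested genes. NPAT, the coactivator of histone gene transcription, had 522 and 555 fragments in vehicle and 409 and 468 after gemcitabine (log2 fold change -0.18, SE 0.09, edgeR adjusted p = 0.143). Of 10 genes of histone mRNA decay none was called, and by the adjusted p alone 3 fell and 1 rose, beside those same shares of all tested genes.

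Histone chaperones and import factors, which carry new histones to DNA, were examined as a list. Of 31 genes 4 were called lower and 0 higher (4.42% and 5.69% of all tested genes), and by the adjusted p alone 19 fell and 2 rose (20% and 18.5% of all tested genes), and the median was -0.22 on the log2 scale. The called genes were NPM1 and SET, acidic chaperones (log2 fold changes -0.82 and -0.78), IPO4, an import receptor (-0.62), and EP400, a remodeller that exchanges H2A.Z (-0.60). SET had 10685 and 10873 fragments in vehicle and 5473 and 6089 after gemcitabine. CHAF1A and CHAF1B, which deposit H3 and H4 behind the replication fork, fell by 0.28 and 0.34 by the adjusted p alone, as did HIRA, which deposits H3.3, by 0.47. ASF1A and ASF1B, which hand H3 and H4 to these complexes, did not pass (0.09 and 0.17).

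CENPA, the centromeric H3 that the symbol rule leaves out, had 828 and 869 fragments in vehicle and 702 and 727 after gemcitabine (log2 fold change -0.13, SE 0.07, edgeR adjusted p = 0.175). The other histone genes outside the rule had at most 5 fragments in any library. Of 37 genes of DNA replication and S phase, 6 were called lower and 0 higher, against 4.42% and 5.69% of all tested genes. The 6 were MCM2, MCM3, MCM5, MCM6, GINS2 and E2F1. MCM5, a subunit of the replicative helicase, fell by 1.14 on the log2 scale. By the adjusted p alone 13 fell and 6 rose, against 20% and 18.5% of all tested genes, and the median was -0.07.

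**Figure D5:**
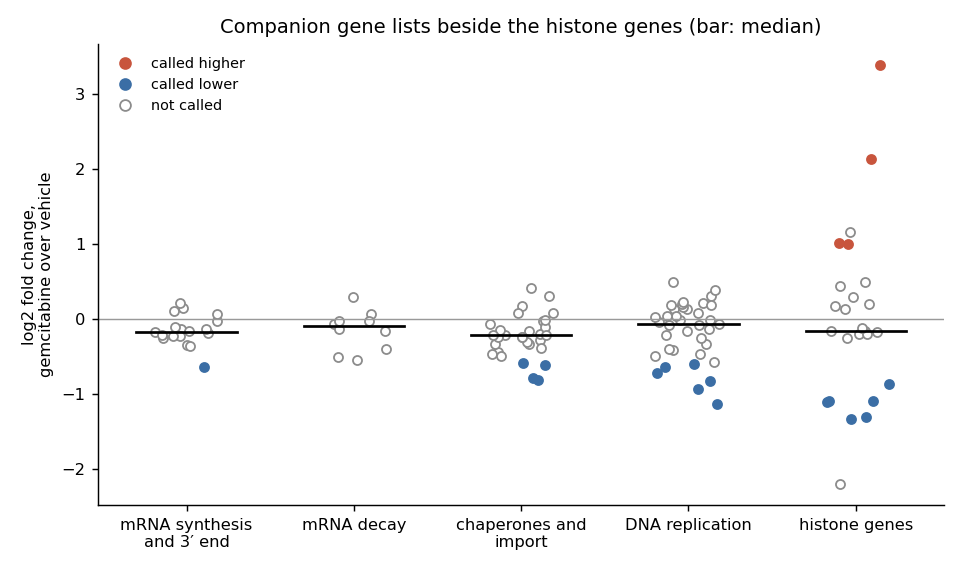
Log2 fold change (gemcitabine over vehicle) of each tested gene in 4 companion lists and of 25 of the 26 tested histone genes, with the median over all tested genes of each list as a bar; red and blue points were called higher and lower. Medians were -0.17, -0.10, -0.22, -0.07 and -0.16 from left to right. Among the histone points, H2AC7, H2AC13 and H2BC18 passed the fragment minimum through the condition in which they were higher. Nothing is read from the spread of the histone genes.

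Open chromatin was compared at start sites. A DNaseI peak lay within 1000 bases of an annotated start of 23 of the 45 histone genes in the vehicle list (51.1%, 95% exact binomial interval 35.8% to 66.3%) and of 22 in the gemcitabine list (48.9%, 33.7% to 64.2%). Of 14512 genes tested for expression that could be placed, 27.1% and 31.4% had a peak. The share among histone genes was above that of expressed genes in both lists and nearly the same in both conditions. Head-to-head genes share a peak, so the genes are not independent, and the intervals cover counting error only.

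The called genes H2BC12, H2AC6, H2AC25, H2BC5, H2BC15, H2AC11, H2AC7 and H2BC21 had a peak in both lists, and H2AC13 had none in either. Around the pair H2BC4 and H2AC6, whose transcripts differed in their change, a single peak spanned both starts, with a score of 96.21 in vehicle and 116.96 after gemcitabine (the score rises as the p-value of a peak falls and is at least 50 in either list). At H2BC12 the scores were 83.72 and 84.70. H1-10 had a peak in the vehicle list only (chr3:129033417-129034291 of hg19), with a score of 50.84, just above the minimum, and it covered the 3′ part of the gene and not its start. H2AZ1 likewise had a peak over its start in the vehicle list only (score 109.72) and H3-3A in the gemcitabine list only (score 77.68). With 1 library per condition, these differences in the lists could not be tested.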

How the data were processed

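RNA-seq and DNaseI-seq of PANC1 cells were analysed from the deposited files, grouped by the sample labels. The authors aligned reads to hg19 with TopHat2 2.0.8 and assigned them with Cuffdiff 2.0.2 to the Gencode V15 annotation, protein-coding part, requiring 10 reads. The deposited table holds estimated counts (86.8% of values are whole) and FPKM, which the authors obtained from Cuffdiff. Its library index could not be tied to the labels' replicate numbers. The deposited peak lists hold a score from MACS, run by the authors on each condition. No fold change or test of the authors was used.

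Members and lists were chosen with earlier results of these data known. Counts were rounded, genes whose 4 libraries summed to 10 fragments or more were kept, and conditions were compared in R 4.3.3 with edgeR 4.0.16 (TMM scaling, quasi-likelihood test, no covariate). CPM are TMM-scaled. On counts simulated from these libraries, with 200 of 14699 genes changed by a fold of 2, edgeR recovered 79.5% with 3.64% of its calls false, DESeq2 73.0% with 0% false and limma 81.5% with 3.55% false. The simulation gave every gene the same spread in both conditions (biological coefficient of variation 0.052). It was scored by an adjusted p under 0.05 alone, so these rates do not describe the calls reported here. Replicates differed by more than sampling noise (mean chi-square per gene 2.17 in vehicle and 5.16 in gemcitabine libraries). Named genes were the expressed variants, the replication-dependent genes with the largest changes past the adjusted p (mean of 1 CPM or more and a fragment in every library), those with the highest FPKM, and called or preset genes of the companion lists. Further members are named as chosen after seeing values or are listed to account for every gene. A member that meets this rule is not reported here. Stem-loops were searched in hg19 and promoters taken from RefSeq. Alternatives were DESeq2 1.42.0, limma 3.58.1 on log2(FPKM + 1) and log2(FPKM + 0.1), other scalings, filters and thresholds, and each library left out in turn.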

Additional observations from a re-analysis of the deposited data

How the results depend on the processing

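The 2 libraries per condition and low counts limit the results: 3 fragments are about 0.2 CPM, and several members lie near that level. No paired analysis was possible because the labels' replicate numbers could not be matched to the table's library index. The members named by rule kept their direction and their side of the full call criteria (adjusted p, fold and FPKM) in 182 of 216 values under the alternatives, lost the call in 21, gained it in 2 and turned sign in 11. The adjusted p alone crossed 0.05 in 43 of these values, 38 of them upward. The called members H1-10, H2AC6, H2BC12 and H2AC11 were called in 13 of 14 alternatives, H2AC25 in 12, H2BC21 in 11, H2BC15 in 9, H2BC5 in 8, and H2AC13 and H2AC7 in 6.

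Of the counts of histone genes called higher (4) and lower (7), DESeq2 gave 2 higher, and 9 genes with an adjusted p under 0.05 against 15. No filter on low counts, edgeR's filterByExpr and an adjusted p under 0.01 each gave 2 higher. On library totals the median of the histone genes was -0.047, while that of all tested genes rose to 0.12. There 418 genes of all those tested were called lower (656 in the result reported), 26.4% of all calls against 43.7%, and the companion lists had 1 called higher and 6 lower (0 and 11 in the result reported). With limma on log2(FPKM + 1) the lists also had 1 higher and 6 lower and 311 genes of all those tested were lower, and with log2(FPKM + 0.1) 1 higher and 7 lower, 335 genes lower and 9 histone genes under the adjusted p. With limma on log2(FPKM + 1) and no filter, 0 histone genes were called higher and 0 lower, 1 had an adjusted p under 0.05, the median was 0, 28 genes of all were higher and 17 lower, and 0 genes of the lists were lower. By the adjusted p alone 2751 genes rose and 2975 fell, and the lists had 9 higher and 42 lower. For all of these the cause was not tested.

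With 1 library left out, 2 to 3 histone genes were called higher and 4 to 7 lower, 7 to 16 had an adjusted p under 0.05, their median ran from -0.17 to -0.11, all genes called higher from 674 to 923 and lower from 594 to 771, and list genes called lower from 9 to 14 with 0 higher. The sign of H2AZ2 turned with limma on FPKM (0.002657 and 0.00264), as did that of MACROH2A1 (0.01609 and 0.01617) and H2BC11 (-0.052 and -0.061), and H2BC11 was at -0.016 without vehicle replicate 1 and -0.035 without gemcitabine replicate 1, with a range to 0.42. DNaseI peaks with a score of at least 100 were at the starts of 6 histone genes in the vehicle list and 8 in the gemcitabine list. Other windows of 200 and 5000 bases gave 20 and 27 in each list.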
